A study of Mus musculus with 6 samples.

Results

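B lineage genes were examined in RNA of sorted CD71highTer119+ bone marrow (BM) erythroblasts, a fraction of red cell precursors. A set of 9 genes of pro-B to mature B cells, Cd79a, Cd79b, Ebf1, Pax5, Vpreb1, Vpreb3, Igll1, Rag1 and Blnk, were taken by name from the probe annotation of the arrays. They make up 9 of 34821 named genes or transcripts and 12 of 55681 probes. The rule that picks them uses gene names and no measured value, but the list was chosen with earlier results of these data known.

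RNA came from 3 P38α+/− mice (P38hetero) and 3 P38α−/− mice (P38ko), with 1 one-colour Agilent whole mouse genome array per mouse. All 6 mice were C57Bl/6 and carried Mx1-Cre, whose promoter responds to interferon and is not restricted to erythroid cells, together with 1 floxed P38α allele and 1 intact allele (P38hetero) or with floxed alleles only (P38ko). Both genotypes received 3 injections of PolyIC from 6 to 8 weeks of age, rested for 6 weeks and were given 1 injection of phenylhydrazine (PHZ), an agent that lyses red cells. Erythroblasts were sorted on day 4 of recovery with antibodies to Ter119 and CD71 and a viability dye, with no antibody to a B cell protein, and 10 ng of RNA per mouse was amplified and labelled with Cy3. The comparison of the genotypes asked which transcripts change in erythroblasts that lack P38α.

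B cells arise in the same marrow as erythroblasts. In early B cell precursors, Ebf1 and Pax5 are the transcription factors that set up and hold the B cell program, and Rag1 is part of the recombinase that cuts immunoglobulin genes. Vpreb1 and Igll1 encode the surrogate light chain of the pre-B cell receptor, Vpreb3 encodes a related protein, Cd79a and Cd79b encode the signalling chains of that receptor and of the mature B cell receptor, and Blnk is the adaptor that links the receptor to its downstream kinases. Levels below are log2 background-subtracted signals minus the 75th percentile of the same array over probes detected on all 6 arrays. A probe is called detected where the scanner software marked it well above background. Levels are compared between arrays, for 1 probe or 1 gene list at a time, and never between probes.

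All 10 of 10 erythroid markers, among them Slc4a1, Klf1 and Gata1, were detected on all 6 arrays, and 0 of the 10 passed the genotype test (limma; 0 also at an unadjusted p of 0.05 and by the methods' unpaired equal-variance test). Detection across the array was uneven, at 53.0%, 38.2% and 36.8% of probes on P38hetero replicates 1 to 3 and at 28.9%, 35.9% and 35.1% on P38ko replicates 1 to 3. P38ko replicate 3 was the only array on its slide. Mapk14, the gene of P38α, was not lower on the arrays labelled P38ko (log2 difference 0.54, limma adjusted p = 0.187, for the brighter probe and 0.01, adjusted p = 0.990, for the dimmer one). Whether either probe lies in the deleted stretch is not given in the sources used here, so within the array data the genotypes rest on the labels alone. The paper reports genotyping by PCR of tail DNA, and loss of P38α protein in sorted erythroblasts of P38α−/− mice.

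B lineage transcripts were detected on every array of both genotypes, and most often on P38hetero replicates 1 and 2. Each of those 2 arrays detected 7 of the 9 genes, P38hetero replicate 3 detected 4, and P38ko replicates 1, 2 and 3 detected 3, 5 and 4. Over all 12 probes and 6 arrays, 32 of 72 readings were well above background, 20 of 36 on P38hetero and 12 of 36 on P38ko arrays. Cd79b, Vpreb3 and Blnk were detected on all 6 arrays and Rag1 on none. Among the 9 probes detected at least once, P38hetero replicates 1 and 2 held the highest 2 signals for 8, and P38hetero replicate 3 lay at or below the highest P38ko array for 8. The exception in both counts was Ebf1. In bulk RNA, fewer B cells and less of these transcripts per cell cannot be told apart.

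**Figure D1:**
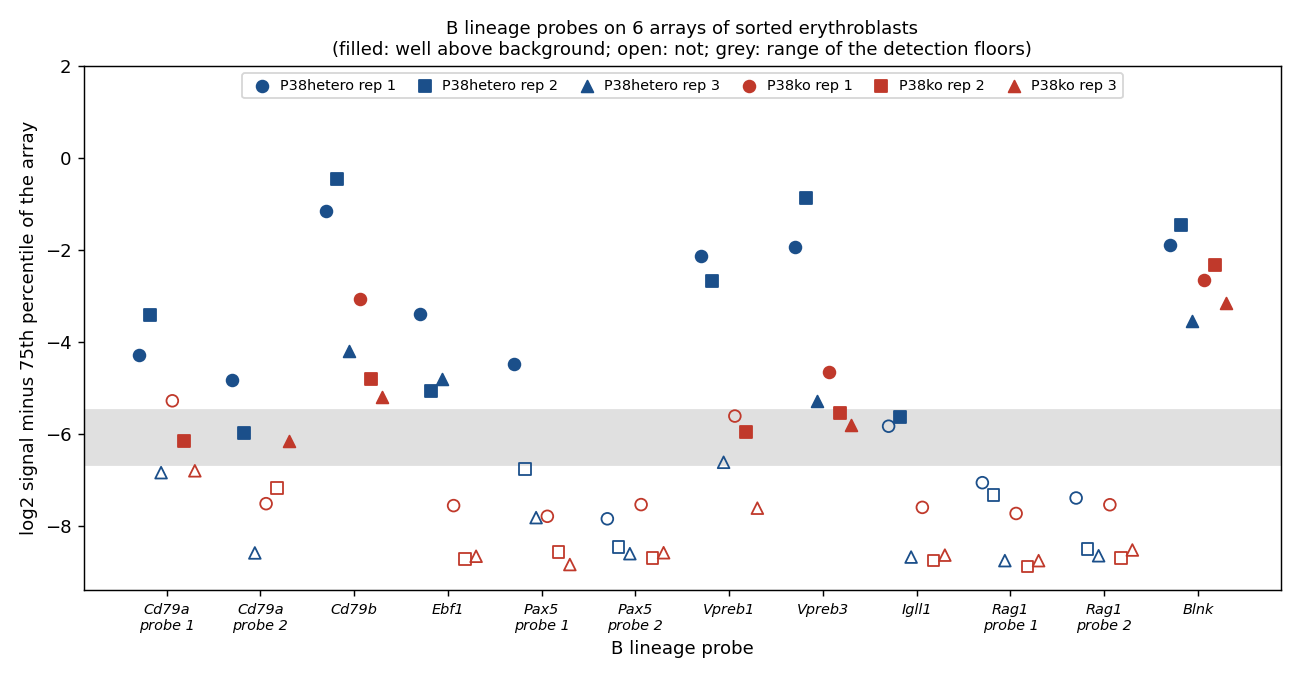
Log2 level of each of the 12 B lineage probes (signal minus the 75th percentile of the array) on the 3 P38hetero arrays (blue) and the 3 P38ko arrays (red), with filled symbols where the probe was well above background, open symbols where it was not, and a grey band for the range of the 6 arrays' lowest detected signals. The circle and square of P38hetero replicates 1 and 2 sit highest for most probes, while the triangle of P38hetero replicate 3 sits at or below the highest P38ko array except for Ebf1. Cd79a probe 2 is the one placed on chromosome 7.

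Cd79b, the Igβ signalling chain, was read by 1 probe (mm9 chr11:106172780-106172839, minus strand). Its level was −1.16, −0.46 and −4.20 on P38hetero replicates 1, 2 and 3 and −3.08, −4.81 and −5.19 on P38ko replicates 1, 2 and 3. P38hetero replicates 1 and 2 were the highest arrays, and P38hetero replicate 3 lay between P38ko replicates 1 and 2. The means were −1.94 ± 1.99 (SD, n = 3) and −4.36 ± 1.13 (SD, n = 3), a log2 difference of −2.42 with a standard error of 1.05 that did not pass the test (limma adjusted p = 0.254, exact permutation p = 0.2, two-sided). The exact test on 3 against 3 arrays cannot go below 0.1. The difference moved to −3.55 without P38hetero replicate 3 and to −1.68 without P38hetero replicate 2, and neither passed the test.

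Cd79a, the Igα chain that pairs with Cd79b, was read by 2 probes, each detected on 3 of 6 arrays. The probe that the array files place in chr7 joins 60 bases across a longer stretch (mm9 chr7:25684357-25684614, plus strand). It is shown because the other Cd79a probe has its mm9 position on a different chromosome.
Cd79a probe on chromosome 7: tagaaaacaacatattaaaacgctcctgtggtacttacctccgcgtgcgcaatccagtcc
On this probe the level was −4.83, −5.97 and −8.59 on P38hetero replicates 1 to 3 and −7.52, −7.18 and −6.16 on P38ko replicates 1 to 3, with detection on P38hetero replicates 1 and 2 and on P38ko replicate 3. The probe placed on another chromosome (mm9 chr12:53180558-53180617, plus strand) read −4.28, −3.42 and −6.84 on P38hetero and −5.28, −6.17 and −6.80 on P38ko arrays, with detection on P38hetero replicates 1 and 2 and on P38ko replicate 2. Both probes were highest on the same 2 arrays and not well above background on P38hetero replicate 3, but they differ on which P38ko array carried signal. Neither was detected on all arrays of a genotype, so neither entered the fit, and no difference is given.

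Vpreb1, the variable-like chain of the surrogate light chain, was read by 1 probe (mm9 chr16:16868559-16868618, minus strand). Its level was −2.14, −2.68 and −6.62 on P38hetero replicates 1 to 3 and −5.61, −5.96 and −7.61 on P38ko replicates 1 to 3. It was detected on P38hetero replicates 1 and 2 and on P38ko replicate 2, and P38hetero replicate 3 was not well above background. With readings at background in both genotypes, no difference is given and the probe was not in the fit. Vpreb1 has a near-identical copy, Vpreb2, whose own probe read −1.47, −4.67 and −6.30 on P38hetero and −4.65, −5.37 and −6.41 on P38ko arrays, and reads of the 2 genes may not be separable.

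Igll1, or λ5, is the constant-like chain that pairs with Vpreb1. Its probe was detected on P38hetero replicate 2 only. The probe (mm9 chr16:16861104-16861163, minus strand) is shown because λ5 resembles the constant part of the λ light chains, so its signal may not be exclusive to Igll1.
Igll1 probe: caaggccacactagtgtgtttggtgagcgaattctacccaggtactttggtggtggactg
Its level was −5.83, −5.62 and −8.68 on P38hetero replicates 1 to 3 and −7.60, −8.75 and −8.63 on P38ko replicates 1 to 3. P38hetero replicates 1 and 2 stood above the other arrays, although replicate 1 was not well above background. No fold is given, as the mean of the P38hetero arrays did not exceed the detection floor of the P38ko arrays.

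Vpreb3, which has a role in assembly of the pre-B cell receptor, was detected on all 6 arrays (mm9 chr10:75412326-75412385, plus strand). Its level was −1.94, −0.89 and −5.28 on P38hetero replicates 1 to 3 and −4.67, −5.54 and −5.81 on P38ko replicates 1 to 3. As for Cd79b, P38hetero replicates 1 and 2 were highest and P38hetero replicate 3 fell within the P38ko range. The means were −2.70 ± 2.29 and −5.34 ± 0.60 (SD, n = 3 each), a log2 difference of −2.64 with a standard error of 1.09 (limma adjusted p = 0.237, exact permutation p = 0.2, two-sided). Without P38hetero replicate 3 the difference was −3.93 and passed the test (limma adjusted p = 0.0497), and over all settings the adjusted p ran from 0.0261 to 1.00.

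Blnk, the adaptor downstream of the receptor, had the smallest genotype difference of the 4 tested genes (mm9 chr19:41003426-41003485, minus strand). Its level was −1.90, −1.47 and −3.55 on P38hetero replicates 1 to 3 and −2.66, −2.33 and −3.16 on P38ko replicates 1 to 3. P38hetero replicate 3 was the lowest of all 6 arrays, below every P38ko array. The log2 difference was −0.41 with a standard error of 0.55 (limma adjusted p = 0.717, exact permutation p = 0.6, two-sided), and its sign turned under 2 settings.

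Ebf1, the factor that specifies the B lineage, was the only one of the 12 probes whose genotypes did not overlap, a pattern that 19.6% of the 14139 tested genes showed in the same direction (mm9 chr11:44818438-44818497, plus strand). Its background-subtracted signal was 77.1, 38.8 and 53.3 units on P38hetero replicates 1, 2 and 3 and 3.97, 3.72 and 3.37 units on P38ko replicates 1, 2 and 3. The probe was well above background on every P38hetero array, replicate 3 included, and on no P38ko array, as were 1.21% of the 32261 probes detected anywhere. On the log2 scale its level was −3.40, −5.08 and −4.81 against −7.56, −8.72 and −8.66. Set against the lowest detected signal of each P38ko array, Ebf1 was at least 3.48-fold lower on P38ko arrays.

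The Ebf1 difference did not pass the threshold (limma adjusted p = 0.0660, exact permutation p = 0.1, two-sided, the smallest it can give), and its probe entered the fit through the P38hetero arrays alone. With the replicate number as a block, a pairing read from these same data, the call changed (limma adjusted p = 0.0482). Over all settings the adjusted p of Ebf1 ran from 1.72e-06 to 0.826. With normexp background correction and an offset of 50, its log2 difference was −0.90, a smaller change than the bound from the reported levels.

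Pax5, which holds B cells in their lineage, was detected by 1 of its 2 probes and on P38hetero replicate 1 only. Both probes are shown, since they gave different readings of the same gene. The first matches mm9 chr4:44658421-44658480 and the second joins 60 bases across chr4:44550354-44582908, both on the minus strand.
Pax5 probe 1: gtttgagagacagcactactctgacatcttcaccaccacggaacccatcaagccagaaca
Pax5 probe 2: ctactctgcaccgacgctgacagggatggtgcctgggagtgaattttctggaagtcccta
Probe 1 read −4.49, −6.76 and −7.82 on P38hetero replicates 1 to 3 and −7.79, −8.56 and −8.84 on P38ko replicates 1 to 3. P38hetero replicate 1 stood clear of the other arrays, none of which was well above background. Probe 2 read between −8.69 and −7.54 with no reading well above background. Rag1 was not detected by either of its probes (mm9 chr2:101478813-101478872 and chr2:101481051-101481110, minus strand), with readings between −8.88 and −7.06 on the first and between −8.70 and −7.39 on the second. At this sensitivity no Rag1 difference was detectable.

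In all, 4 of the 9 genes had a probe detected on all arrays of a genotype and were tested. A call required limma's adjusted p to be 0.05 or less and the change to be 2-fold or more. None of the 4 was called, against 0.191% of all tested genes (27 of 14139, of which 6, or 0.0424%, were lower and 21, or 0.149%, higher in P38ko). At an unadjusted p of 0.05 with the same fold, 2 of the 4 passed, Ebf1 and Vpreb3, beside 8.88% of all tested genes, and 0 of the 4 were called by the methods' test. The median log2 difference of the 4 was −2.53, or −2.11 with Ebf1 at its bound, beside −0.14 over all tested genes, and all 4 differences were below 0, as were 65.5% of all tested genes. For 3 of the 4, P38hetero replicates 1 and 2 both exceeded the other 4 arrays, a pattern of 21.9% of all tested genes. Ebf1 passed the detection filter through the arrays where it was high and the other 3 on all arrays, and the median describes these 4 and not all 9 genes.

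The labels state no pairing of the mice. Because of correlations within these same data, the replicate numbers were taken to pair them, and the levels were also read within pairs. Cd79b differed by −1.92, −4.35 and −0.99 between the mice numbered 1, 2 and 3, and Vpreb3 by −2.73, −4.66 and −0.53. Blnk differed by −0.76, −0.86 and 0.39. Cd79b, Vpreb3 and Ebf1 were lower on the P38ko array in all 3 pairs, as were 37.3% of all tested genes. For Ebf1, whose genotypes did not overlap, this would hold under any pairing. The third pair had the smallest difference for Cd79b and Vpreb3.

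**Figure D2:**
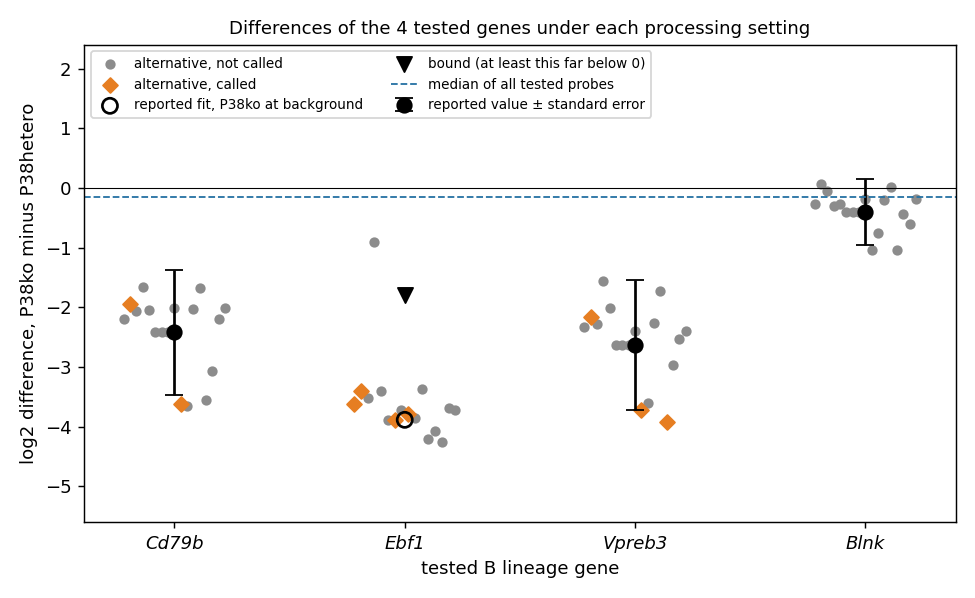
Log2 difference (P38ko minus P38hetero) of the 4 tested B lineage genes, with filled black points for the reported value and its standard error, an open circle for Ebf1, whose fit rests on P38ko readings at background, a triangle for the Ebf1 bound (at least 3.48-fold lower), grey points for the other processing settings without a call, orange diamonds for settings with one, and a dashed line at the median of all tested probes (−0.16). Cd79b, Ebf1 and Vpreb3 stay below 0 under every setting plotted, while Blnk lies on both sides of 0.

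Under other settings, 0 to 3 of the 4 genes were called, in each case as lower in P38ko. Ebf1 was called with quantile normalization, which called 0.00707% of all genes lower, and with the replicate block, which called 0.339% lower. Cd79b, Ebf1 and Vpreb3 were called with the percentile over all probes, which called 2.32% of genes lower, and with array weights, which called 10.2% lower. Vpreb3 was called without P38hetero replicate 3, where 0.46% of genes were called lower.

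Because the scaling of the arrays moved all genes together, the difference between the 4 genes and the whole array was also followed across scalings. The median of all tested genes was −0.14 as reported, 0.05 with quantile normalization, 0.23 with centring on the E1A spike-in spots and 0.34 with the percentile taken over all probes. The percentile and spike-in scalings shift each array by a constant, so the median of the 4 genes relative to all genes is −2.39 under each of them by construction. It was −2.31 with quantile normalization. With normexp background correction and an offset of 50, which compresses dim signals, it lay at −1.16.

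The wider B cell program was followed through 45 other genes, of which 42 had a probe by name and 22 were tested. None of the 22 was called (limma), 6 had a p of 0.05 or less before adjustment (20.1% of all tested genes did), and the methods' test called 0. Of the 22 differences, 17 were below 0 and 5 above, beside 65.5% of all tested genes below 0. Their median was −0.87, also with 2 genes at their bound. With the percentile over all probes 14 were below 0. Some of the 22 entered the fit through the P38hetero arrays alone, where they were high. Of the 17 detected on all 6 arrays, 12 were below 0, with a median of −0.63. The genotypes did not overlap for 6 lower and 1 higher gene, beside 19.6% lower and 7.45% higher among all tested genes. P38hetero replicates 1 and 2 were the highest arrays for 11 of the 22, beside 21.9% of all tested genes.

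Among transcription factors, Pou2af1, a coactivator of octamer factors in B cells, and Irf8, a factor of B and myeloid cells, had the lowest differences of the tested genes. Pou2af1 read −3.40, −2.88 and −5.74 on P38hetero arrays and was not well above background on any P38ko array. It was at least 4.67-fold lower there (limma adjusted p = 0.162), and its probe entered the fit through the P38hetero arrays alone. Irf8 differed by −1.61 (adjusted p = 0.246). The highest were Bcl11a at 0.07 and Ikzf1 at 0.06, 2 factors that act in several blood lineages, and their 6 arrays lay close together.

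Among receptor and signalling genes, Cr2, a complement receptor of mature B cells, and Plcg2, the phospholipase downstream of Blnk, both differed by −1.43 (limma adjusted p = 0.261 and 0.160). Cr2 was detected on 3 P38hetero and 2 P38ko arrays, so its probe entered the fit through the P38hetero arrays alone. Cd81, a widely expressed tetraspanin, differed by 1.06 (adjusted p = 0.0683) and Btk, a kinase of the receptor pathway, by −0.23. Ighm, the μ heavy chain, was detected on P38hetero replicate 1 only, at −3.05, and was named after its values were seen.

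Among surface genes, Ms4a1, which encodes CD20, read −4.74, −3.29 and −5.99 on P38hetero arrays and was not well above background on any P38ko array. It was at least 2.94-fold lower there (limma adjusted p = 0.103). Like Ebf1 and Pou2af1, it was detected on all 3 P38hetero arrays and on no P38ko array, as were 1.21% of the 32261 probes detected anywhere. As for those genes, its probe entered the fit through the P38hetero arrays alone. Ly6d, a marker of B-biased lymphoid progenitors, differed by −2.22 (adjusted p = 0.253). It was detected on 3 P38hetero and 2 P38ko arrays, so its probe too entered the fit through the P38hetero arrays alone. Tnfrsf13c, the BAFF receptor, differed by 1.69 (adjusted p = 0.383) with P38hetero replicate 3 and P38ko replicate 3 the highest arrays, and Cd24a, which erythroid cells also express, by −0.14.

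Markers of other blood cells were followed across the same arrays, since the sort used no antibody to exclude them. Neutrophil transcripts were detected in full, with 10 of 10 markers on all 6 arrays, no marker at background, and a summed level of 105 to 274 times the reference percentile on P38hetero and 55.6 to 80.0 on P38ko arrays. All 10 neutrophil differences were below 0, beside 65.5% of all tested genes, and 9 did not overlap, beside 19.6%. Of the 10, 0 were called by limma (10 at an unadjusted p of 0.05, beside 20.1% of all tested genes, and 0 by the methods' test). P38hetero replicates 1 and 2 were the highest arrays for all 10, beside 21.9% of all tested genes. The same sum over the 9 B lineage genes ran from 0.229 to 1.95 on P38hetero and from 0.180 to 0.382 on P38ko arrays, so its ranges overlapped.

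The other lists were summed in the same way, and each sum is compared between arrays only. The sums ran from 0.697 to 1.70 against 0.431 to 0.921 for 9 macrophage markers, where Mrc1 was not detected on any array, and from 1.25 to 3.22 against 1.02 to 1.20 for 10 T or NK cell markers, where Cd8a was not. They ran from 15.0 to 18.2 against 12.5 to 14.0 for 5 plasmacytoid dendritic cell markers, all 5 detected on each P38hetero array. A sum follows its brightest probes. This one largely tracks Siglech, at 3.85, 4.13 and 3.96 on P38hetero and 3.77, 3.67 and 3.62 on P38ko arrays. For 6 plasma cell markers the sums ran from 1.15 to 2.06 against 1.55 to 2.18, with Prdm1, Sdc1 and Tnfrsf17 detected nowhere. For 6 megakaryocyte markers they ran from 1.56 to 2.07 against 1.82 to 2.31, with Ppbp and Gp1bb among those detected nowhere. Erythroid markers ran from 265 to 320 against 251 to 330. Limma called 0 genes of these lists, with 1 of 8 macrophage, 2 of 6 T or NK, 3 of 5 plasmacytoid dendritic, 1 of 3 plasma cell, 1 of 3 megakaryocyte and 0 of 10 erythroid genes at an unadjusted p of 0.05, and the methods' test called 0. The part of other cell types in the B lineage differences was not tested.

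**Figure D3:**
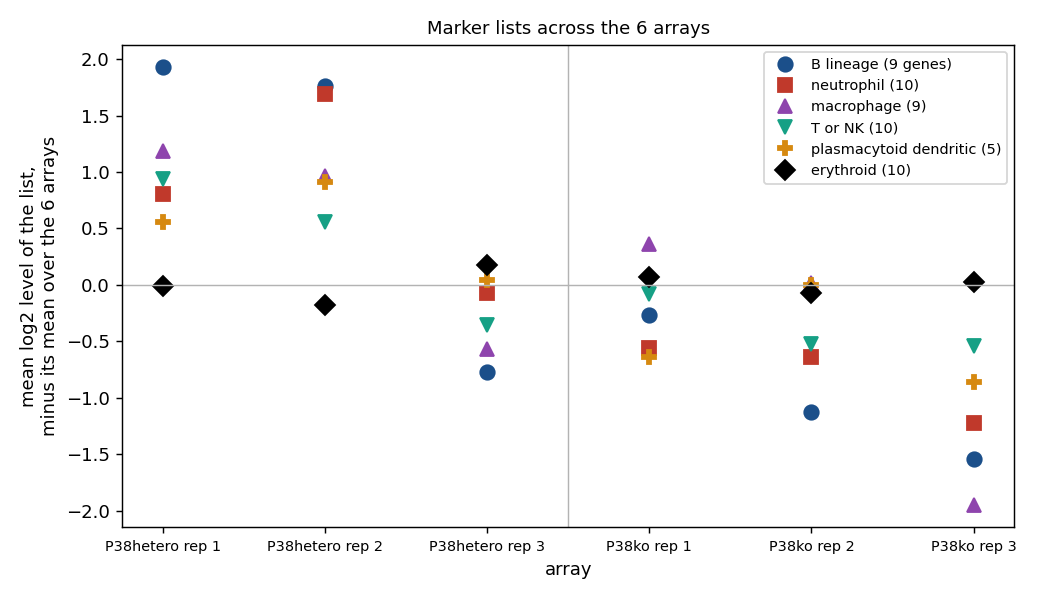
Mean log2 level of the B lineage genes and of 5 marker lists on each of the 6 arrays, each list centred on its own mean, with the grey line parting P38hetero from P38ko arrays. B lineage, neutrophil, macrophage, T or NK and plasmacytoid dendritic lists are highest on P38hetero replicates 1 and 2, and the erythroid list stays within a narrow range.

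The genes whose profile over the 6 arrays came closest to that of the B lineage were sought among 12000 genes detected on all arrays, by the root mean square difference from the mean centred profile of Cd79b, Vpreb3 and Blnk. The closest was Prss34, a serine protease of basophils and mast cells, at 0.31 log2 units. Plxnd1, a semaphorin receptor, followed at 0.31, Ramp1, a subunit of the CGRP receptor, at 0.33, Gstm1, a glutathione transferase, at 0.33 and Wdfy4, a gene of dendritic and B cells, at 0.36. Prss34 read −2.10, −1.01 and −4.83 on P38hetero and −4.00, −5.34 and −5.35 on P38ko arrays. None of the 5 passed the genotype test, with limma adjusted p-values from 0.230 to 0.269. They were picked for a profile in which P38hetero replicate 3 lies among the P38ko arrays, so this result is no separate finding.

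**Figure D4:**
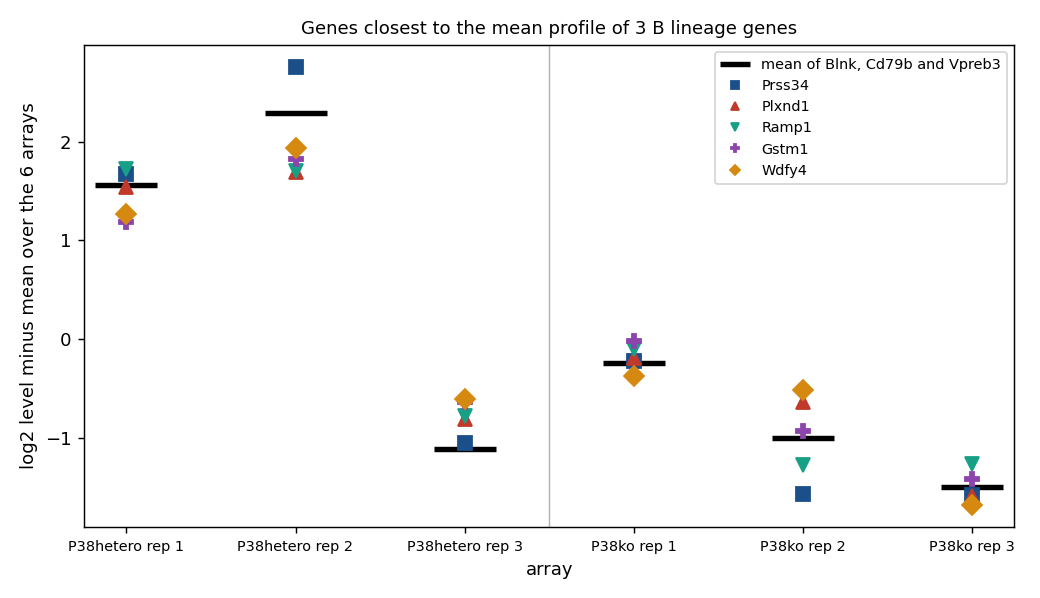
Log2 level on each array minus the gene's mean over the 6 arrays, for the 5 genes closest to the B lineage profile (symbols) and for the mean of Blnk, Cd79b and Vpreb3 (black bars). All 5, picked for their closeness to this profile, are highest on P38hetero replicates 1 and 2 and below their mean on the other 4 arrays.

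Promoters of the member genes were read from RefSeq (GRCm38.p6), which held 8 of the 9 genes. The following 3 motifs were searched on both strands in the 250 bases before each start, an E-box (CAGGTG, or CACCTG on the other strand) of the kind bound by E proteins, the octamer (ATTTGCAT, or ATGCAAAT) and the EBF1 palindrome. The E-box was found for 5 of the 8 genes, Blnk, Cd79a, Igll1, Rag1 and Vpreb1, and in 17.2% of all 32851 promoters. The octamer was found for Blnk and Vpreb3 and in 1.60% of all promoters, and the EBF1 palindrome for none of the 8 and in 0.779%. A match is a run of letters and not a measured binding site. The EBF1 search took only full matches to the palindrome, so the lack of one cannot show that a promoter has no EBF1 site.

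The 200 bases before the start are shown for 3 genes whose signal was highest on P38hetero replicates 1 and 2, with the motif in capitals. They lie at GRCm38.p6 chr7:24897297-24897496 (Cd79a, plus strand), chr16:16869256-16869455 (Vpreb1, minus strand) and chr10:75948100-75948299 (Vpreb3, plus strand). The E-box begins 154 bases before the start of Cd79a and 88 before that of Vpreb1, and the octamer 45 before that of Vpreb3.
Cd79a promoter: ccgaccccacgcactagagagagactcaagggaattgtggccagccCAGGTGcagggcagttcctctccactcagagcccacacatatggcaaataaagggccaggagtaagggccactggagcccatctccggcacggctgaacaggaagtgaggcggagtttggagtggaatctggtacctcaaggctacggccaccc
Vpreb1 promoter: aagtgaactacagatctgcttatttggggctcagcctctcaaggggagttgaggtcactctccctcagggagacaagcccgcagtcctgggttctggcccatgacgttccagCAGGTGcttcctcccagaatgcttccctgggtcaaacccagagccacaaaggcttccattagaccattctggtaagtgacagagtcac
Vpreb3 promoter: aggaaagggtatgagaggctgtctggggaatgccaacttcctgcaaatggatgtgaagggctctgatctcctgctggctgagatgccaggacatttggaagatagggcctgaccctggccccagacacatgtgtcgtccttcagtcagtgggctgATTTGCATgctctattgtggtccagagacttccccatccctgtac
The octamer is the binding sequence of the Oct factors, with which Pou2af1 acts.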

How the data were processed

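RNA of sorted BM erythroblasts was hybridised to 1 array per mouse, 3 P38hetero and 3 P38ko, and arrays were grouped by their sample labels, with 0 columns unassigned. The authors deposited spot intensities as Agilent Feature Extraction 10.7.3.1 wrote them, background-subtracted and not normalized between arrays, and a table of normalized intensities on a linear scale, whose steps are not given in the sources used here and in which the column of P38ko replicate 2 has a Spearman correlation of 0.898 with its scanner signal (1.00 for the other 5). Probe positions are those of mm9.

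Control and outlier spots were left out, spots of a probe averaged, and log2 signals centred on the 75th percentile of 15527 probes well above background on all arrays. A probe was tested if detected on all 3 arrays of a genotype (18764 probes, 14139 genes). Genotypes were compared with limma 3.58.1 in R 4.3.3 (two-sided, Benjamini-Hochberg over all tested probes, threshold an adjusted p of 0.05 and a 2-fold change), and single probes by exact permutation. The fit was tested on simulated data. P-values measure the spread between mice, and 3 arrays per genotype limit the precision.

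The members, gene lists and tests were chosen with earlier results of these data known. All member probes are named, with the 2 lowest and 2 highest tested genes of each other B cell list, the 5 genes of closest profile, and Mapk14. Single values of some listed genes are not reported here. The sample labels number the mice within each genotype and state no pairing. Residuals of arrays with the same replicate number correlated at 0.392, 0.242 and 0.389, and those with different numbers at 0.0618 or less, so the numbers were taken to pair the mice. This pairing was read from the same data that the replicate block then fits, so it is not independent of them. Alternatives were other scalings (quantile, percentile of all probes, E1A spike-in), normexp background with an offset of 50, the deposited normalized values, a stricter filter on dim probes or none, the replicate number and the slide as blocks, array weights, the methods' unpaired equal-variance test, the mean of a gene's probes, and each array left out.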

Additional observations from a re-analysis of the deposited data

How the results depend on the processing

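Of 163 values of member probes under other settings, 150 kept their direction and side of the threshold, or moved by less than the spread between replicates, and 9 passed the threshold only under the alternative. Among the 4 tested probes the sign turned for Blnk only. It went to 0.0706 with the percentile over all probes and to 0.00782 without P38hetero replicate 2 (−1.03 to 0.00782 with 1 array left out). Normexp moved Pax5 probe 1 to −0.42 and Igll1 to −0.29. It brought Ebf1 from −3.88 to −0.90 (limma adjusted p = 0.515). Some untested probes also turned sign, within the spread between replicates. The sign held under 9 of 12 settings for the chromosome 7 Cd79a probe, 8 of 12 for Pax5 probe 2 and 5 of 12 for the second Rag1 probe. The median of the tested members stayed between −3.74 and −1.23 under every setting run, and between −3.74 and −1.71 with 1 array left out.

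The number of member genes called, 0 as reported, was 1 with quantile normalization (Ebf1), 1 with the replicate block (Ebf1), 3 with the percentile over all probes and 3 with array weights (Cd79b, Ebf1 and Vpreb3 in both), and 0 to 1 with 1 array left out, the 1 being Vpreb3 without P38hetero replicate 3. All were lower in P38ko. The replicate block, which pairs mice of the same number, changed no other member call.

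Over all genes, 27 were called as reported, and 15 with quantile normalization, 737 with the percentile over all probes, 5 with E1A centring, 12 with normexp, 11 with the deposited normalized values, 0 without a filter, 76 with the stricter filter, 63 with the replicate block, 0 with the slide block, 1685 with array weights, 2 with the methods' test and 0 to 100 with 1 array left out. The share of calls higher in P38ko was 77.8% as reported, 55.5% with the percentile over all probes, 23.8% with the replicate block and 14.5% with array weights. The slide block could not be told apart from leaving out P38ko replicate 3, the only array on its slide. The cause of these changes was not tested. Signal over background limits Rag1, Pax5, Igll1 and the P38ko readings of Ebf1, for which only a bound can be given.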
